A study of Mus musculus with 3 samples.

Results

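Signals of 10 genes typical of neutrophils, their precursors and inflammatory monocytes were followed in isolated mouse liver cells: S100a8, S100a9, Ngp, Camp, Ltf, Csf3r, Mpo, Elane, Ly6c1 and Chi3l3. They were found as the non-control spots carrying these gene names, which gave 10 genes and 13 probes of 31896 gene symbols and 39429 probes on the array. Hepatocytes came from collagenase-treated livers of male C57BL/6 mice that had been fasted, and their RNA was hybridised to single-colour (Cy3) Agilent arrays, 1 array per group. The mice were wild type, entered the study at 6 weeks of age, spent 16 weeks on their diet and were 22 weeks old at its end. One group ate a standard diet (the standard-diet array). A second ate a high-fat diet and, after 10 weeks of it, received control IgG into the abdomen 2 times a week for 6 weeks (the HFD-IgG array). The third had the same diet and injections, but with blocking antibody against VLA-4 (the anti-VLA-4 array). This protein is the α4β1 integrin with which leukocytes hold on to inflamed endothelium. No injection is listed for mice on standard diet, which makes diet and injection differ together, and the number of mice behind an array is not given.

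With 1 array per group there was no test, no p-value and no replicate check, and the spread between mice and between cell preparations is unknown. The standard-diet and HFD-IgG arrays lay on 1 slide and the anti-VLA-4 array on another, so a slide effect and an antibody effect cannot be told apart. All values are relative signals, that is the scanner's background-corrected spot intensity divided by the 75th percentile of the array's 43020 non-control spots. By the scanner's own criterion, 57.3% of these spots stood well above background with standard diet, 66.5% with HFD-IgG and 62.4% with anti-VLA-4, and 0 were saturated. Where a probe was well above background on only 1 of 2 arrays, its fold is a lower bound, written "at least". The dim side then stands at that array's floor, the faintest spot still well above background, or at its own value where that is higher. Errors are the scanner's error within an array and leave out any difference between animals. A gene was called higher or lower at 2-fold.

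Neutrophils carry granules that fill in order as the cell matures. Primary granules, laid down in the promyelocyte, hold myeloperoxidase (Mpo) and neutrophil elastase (Elane). Secondary granules follow with lactoferrin (Ltf), the cathelicidin precursor (Camp) and neutrophilic granule protein (Ngp), while the S100a8-S100a9 dimer, calprotectin, fills the cytosol of mature neutrophils and of inflammatory monocytes. Inflammatory monocytes of the mouse bear Ly6C on their surface. In liver on a high-fat diet, neutrophils and such monocytes are known to enter from the blood and settle in the sinusoids beside Kupffer cells, the liver's resident macrophages. The preparation is labelled as hepatocytes, and an array of its pooled RNA does not tell which cells gave a signal, nor can more cells of a type and more RNA per cell be told apart.

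The probes that carry the results are shown first, because the letters of the Ngp, Csf3r and Camp probes bear on how their signals can be read. Probe letters come from the array files and positions are on build mm9. In the first 4 lines, whole 60-base probes are shown with the purines (A and G) in capitals, since calls on the HFD-IgG array went with the purine content of a probe over the whole array.
S100a8: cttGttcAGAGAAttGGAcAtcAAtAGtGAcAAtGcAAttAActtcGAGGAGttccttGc
Ngp: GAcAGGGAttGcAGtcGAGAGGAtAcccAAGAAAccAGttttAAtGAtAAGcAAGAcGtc
Ltf: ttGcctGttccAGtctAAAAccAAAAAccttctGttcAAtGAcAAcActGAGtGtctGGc
Ly6c1, dimmer probe: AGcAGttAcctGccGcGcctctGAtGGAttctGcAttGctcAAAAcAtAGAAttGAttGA
Csf3r, end of the probe: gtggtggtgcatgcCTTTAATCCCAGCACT
Camp, brighter probe: cagccAgagTagtaggcctgccttggcctg
Camp, dimmer probe: cagccGgagCagtaggcctgccttggcctg
The S100a8 probe (chr3:90473778-90473837) holds 51.7% purines, the Ngp probe (placed at chr9:110324266-110324814) 63.3%, the Ltf probe (chr9:110942873-110942932) 45.0% and the dimmer Ly6c1 probe (chr15:74877785-74877844) 48.3%. Capitals in the Csf3r line mark the last 16 bases of its probe (chr4:125721478-125721537), a run known from the mouse B1 repeat. Capitals in the Camp lines mark 2 substitutions, A16G and T20C, counted from the 5′ end of the brighter probe (chr9:109749911-109749970). Its letters align with those of the dimmer probe over 50 bases. The listed placement of the dimmer probe (chr9:109749901-109749950) is shorter than its 60 bases, leaves out both substitutions, and overlaps the other placement by less.

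Across the 3 arrays the 10 genes did not move as 1 group. S100a8, S100a9 and Chi3l3 were brightest on the anti-VLA-4 array. Ly6c1 was high on both high-fat-diet arrays, Ngp exceeded background with HFD-IgG alone, and Elane, Csf3r and Camp stayed within 2-fold in each comparison. Mpo and Ltf were near the floor. Well above background were 7 of the 10 genes with standard diet, 7 with HFD-IgG and 8 with anti-VLA-4. All 10 were so on at least 1 array, and 6 on all 3.

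**Figure D1:**
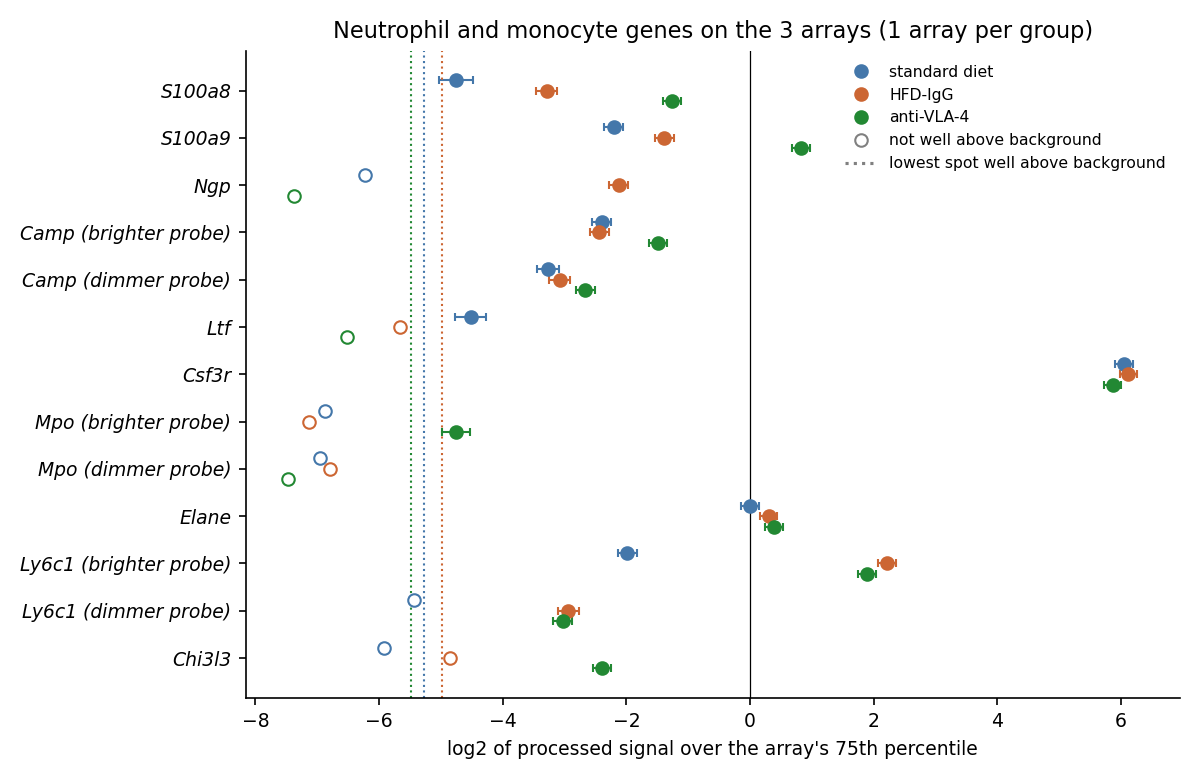
Relative signal of each of the 13 probes on a log2 axis, 1 point per array, with the scanner's error for filled points. Open points are not well above background, and dotted lines mark the lowest spot well above background on each array. The S100a8 and S100a9 points climb from the standard-diet to the anti-VLA-4 array, while both Ly6c1 probes separate the standard-diet array from the other 2.

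S100a8 encodes one chain of calprotectin, a calcium-, zinc- and manganese-binding protein that also acts as an alarm signal outside the cell. Its relative signal was 0.0369 with standard diet, 0.102 with HFD-IgG and 0.419 with anti-VLA-4. It was well above background on all 3, and the standard-diet value lay close to that array's floor of 0.0257. HFD-IgG exceeded standard diet by 1.47 on the log2 scale (scanner error 0.321), a 2.77-fold difference. Under quantile scaling that log2 difference was 0.48 and the call was lost. Anti-VLA-4 exceeded HFD-IgG by 2.03 (scanner error 0.225), a 4.09-fold difference, and exceeded standard diet 11.4-fold. With normexp background correction, which adds a constant of 50, the difference between the high-fat-diet arrays was 0.30 and no longer called, while that between HFD-IgG and standard diet was 1.88. The share of all genes called higher in HFD-IgG over standard diet was 40.4% with that correction.

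S100a9, the partner chain, showed the same order of arrays. Its relative signal was 0.217 with standard diet, 0.383 with HFD-IgG and 1.77 with anti-VLA-4. HFD-IgG was 1.77-fold above standard diet, which was not called except with normexp correction (1.02 on the log2 scale). Anti-VLA-4 was 4.62-fold above HFD-IgG, 2.21 on the log2 scale with a scanner error of 0.206, and 8.16-fold above standard diet. Of the 9 alternatives that gave a value, only other scaling or normexp correction could change the log2 difference between anti-VLA-4 and HFD-IgG. Under these it ran from 1.21 to 2.34, so S100a9 stayed called. The rest reuse the main value.

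The S100a8 and S100a9 genes lie side by side, and their log2 differences between the high-fat-diet arrays, 2.03 and 2.21, were apart by less than the scanner error of either. Neighbouring S100a6, a family member of many cell types, had 0.230 with standard diet, 0.269 with HFD-IgG and 0.480 with anti-VLA-4, so it was within 2-fold between the high-fat-diet arrays and 2.08-fold higher with anti-VLA-4 than with standard diet. S100a7a and Pglyrp4, on either side of the pair, were not well above background on any array. Of 14 other S100 genes, 11 were compared between anti-VLA-4 and HFD-IgG, 0 were called higher and 1 lower (S100a14, named after its values were seen), and their median was -0.17. Quantile scaling gave 2 called higher and cyclic loess 1. Of the 10 compared between anti-VLA-4 and standard diet, 2 were called higher (S100a4 and S100a6, named after their values were seen). The dimmer S100a4 probe was not well above background with standard diet and read 0.150 with HFD-IgG and 0.361 with anti-VLA-4, while the brighter probe differed by 1.37-fold between these arrays. The 4 brightest of them, S100a1, S100a10, S100a13 and S100a16, differed by at most 1.33-fold there.

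Because both genes moved together, the 250 bases before their start are shown, from RefSeq on build GRCm38.p6, on the gene's strand, at chr3:90668821-90669070 for S100a8 and chr3:90695722-90695971 (minus strand) for S100a9. Capitals mark TATAAA, searched on the gene's strand only, and TTGCNNAA, a core of the sites that C/EBP factors bind, searched on both strands.
S100a8: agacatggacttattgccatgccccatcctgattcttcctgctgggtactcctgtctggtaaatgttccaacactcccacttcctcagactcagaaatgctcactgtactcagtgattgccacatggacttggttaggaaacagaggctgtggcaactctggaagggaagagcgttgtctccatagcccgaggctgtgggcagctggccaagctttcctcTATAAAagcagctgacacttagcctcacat
S100a9: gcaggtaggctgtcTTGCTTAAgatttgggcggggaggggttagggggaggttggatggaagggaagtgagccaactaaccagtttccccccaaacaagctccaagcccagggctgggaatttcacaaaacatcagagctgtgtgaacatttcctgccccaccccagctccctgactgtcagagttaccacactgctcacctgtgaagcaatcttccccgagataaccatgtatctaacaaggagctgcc
TTGCNNAA stood in the windows of 3 of the 10 genes (S100a9, Ngp and Ltf), against 9.56% of all 32851 windows of that length, and TATAAA in 2 (S100a8 and 1 of the 2 windows of Ly6c1), against 7.59%. No window of the 10 held both. These are matches of letters, not bound sites.

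Receptors proposed for the calprotectin dimer were read next. Tlr4, which senses bacterial lipopolysaccharide, did not pass the background criterion with standard diet and read 0.109 with HFD-IgG and 0.0794 with anti-VLA-4. Its co-receptor Ly96 read 0.898, 1.02 and 1.21 in the order standard diet, HFD-IgG and anti-VLA-4. The fatty acid receptor Cd36 read 2.28, 5.90 and 5.40 in that order. Of the 4 receptors compared between the high-fat-diet arrays, 0 were called.

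Chi3l3 (Ym1, now Chil3) encodes a chitinase-like lectin without enzyme activity that myeloid cells secrete. Its relative signal was 0.0166 with standard diet and 0.0347 with HFD-IgG, neither well above background, and 0.191 with anti-VLA-4. It was therefore at least 5.50-fold higher on the anti-VLA-4 array than on the HFD-IgG array and at least 7.41-fold higher than on the standard-diet array. With normexp correction the first bound fell to 0 on the log2 scale, which leaves no fold. The relatives Chi3l4, Chi3l7 and Chia, whose genes neighbour it, were not well above background on any array. Chi3l1, a relative elsewhere in the genome, read 0.0299, 0.175 and 0.101, so its highest array was HFD-IgG.

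Ly6c1 encodes one form of Ly6C, a small anchored surface protein of inflammatory monocytes that endothelial cells and T cells carry too. Its brighter probe read 0.253 with standard diet, 4.65 with HFD-IgG and 3.70 with anti-VLA-4. The rise from standard diet to HFD-IgG was 18.4-fold, with a scanner error of 0.208 on the log2 scale, and that from standard diet to anti-VLA-4 was 14.6-fold. The dimmer probe did not pass the background criterion with standard diet (0.0231) and read 0.130 and 0.123 on the other 2, at least 5.07-fold and at least 4.77-fold higher. Between the high-fat-diet arrays both probes differed by little, 1.26-fold and 1.06-fold. The call against standard diet held under other scaling, normexp correction and the mean over probes, from 3.29 to 4.31 for HFD-IgG. The rest of the 9 alternatives reuse the main value. Ly6c2, a near-identical neighbour, was not found by name among the probes, and the probes may not separate the RNA of the 2 genes.

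The Ly6 family was read beside it. Ly6a, the stem cell antigen Sca-1 that endothelial cells also carry, rose from 0.0981 on the standard-diet array to 1.51 on the HFD-IgG array and read 0.560 on the anti-VLA-4 array. Ly6e rose 3.51-fold from standard diet to HFD-IgG. Ly6g, the usual surface marker of mouse neutrophils, read 0.310, 0.490 and 0.589 in the order standard diet, HFD-IgG and anti-VLA-4, and was within 2-fold in each of these steps. Of 8 family members compared between HFD-IgG and standard diet, 4 were called higher (Ly6a, Ly6d, Ly6e and Ly6h) and 1 lower (Ly6f), the last of each being named after their values were seen. Quantile scaling gave 3 higher and 2 lower and moved the median from 1.12 to 0.29. Ly6h was dim, at 0.0299 with standard diet and 0.0717 with HFD-IgG. Its other probe was not well above background on any array.

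Ngp encodes a cathelicidin-related protein of secondary granules. It read 0.0133 with standard diet, 0.230 with HFD-IgG and 0.00602 with anti-VLA-4, and only the HFD-IgG value was well above background. This put HFD-IgG at least 8.93-fold above standard diet and anti-VLA-4 at least 10.2-fold below HFD-IgG, the reverse of S100a8 and S100a9 in the second step. Its probe, shown above, is the richest in purines of those used for the 10 genes. Among genes whose probe has over 60% purines, 46.9% were called higher in HFD-IgG over standard diet and 46.7% lower in anti-VLA-4 over HFD-IgG. The part of purine content in the Ngp result was not tested. With normexp correction the bound between the high-fat-diet arrays was -0.66 on the log2 scale and not called.

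Camp, whose product is cut to the antimicrobial peptide of mouse neutrophils, was measured by a pair of overlapping probes. The brighter read 0.190 with standard diet, 0.185 with HFD-IgG and 0.358 with anti-VLA-4, and the dimmer 0.104, 0.118 and 0.158 in that order. Anti-VLA-4 was 1.94-fold above HFD-IgG by the first and 1.34-fold by the second, both short of the call. On the log2 scale the first was 1.29 under quantile scaling, past the call, and -0.02 with normexp correction. Between HFD-IgG and standard diet the sign of the brighter probe's log2 difference, -0.04, turned under 3 of 9 alternatives.

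Ltf, an iron-binding protein of secondary granules, exceeded background with standard diet alone. Its values were 0.0435 there, 0.0197 with HFD-IgG and 0.0109 with anti-VLA-4. It was at least 1.38-fold and at least 1.94-fold lower on the last pair of arrays than on the first. Neither bound reached the call, although under quantile scaling the first was -1.77 on the log2 scale and passed it. The second passed it under 3 of 7 alternatives.

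Of the primary granule genes, Mpo, the enzyme that makes hypochlorous acid, was at the floor. Its used probe read 0.00852, 0.00711 and 0.0370 in the order standard diet, HFD-IgG and anti-VLA-4, and only the last was well above background, at least 1.17-fold above HFD-IgG. A second Mpo probe was not well above background on any array. Elane, the serine protease elastase, read 1.004, 1.23 and 1.31 in that order, all well above background and within 1.30-fold of each other. Prtn3, the protease gene beside it, read 0.0407, 0.0623 and 0.0550. Cfd, the complement protease gene on its other side, read 0.148, 3.47 and 2.86. Prtn3 stayed within 2-fold in each comparison, as Elane did, whereas Cfd rose past 2-fold from standard diet to both other arrays.

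Csf3r encodes the receptor for granulocyte colony-stimulating factor, which drives neutrophil production. Its probe read 66.2 with standard diet, 69.7 with HFD-IgG and 58.3 with anti-VLA-4, within 1.20-fold. The 16-base run at its end, shown above, occurs on the same strand in 4 of 39429 probes, its own included, and in no other probe of the 10 genes. One of the other 3, for the bile acid transporter Slc10a1, read 467, 528 and 487, another, for the predicted gene Gm13241, 75.5, 88.7 and 83.8, and the last 0.0543, 0.0174 and 0.0198. How much of the Csf3r signal comes from RNA with this repeat was not tested.

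Counts over the 10 genes stand beside those of the whole array. Between HFD-IgG and standard diet, 8 of the 10 were compared, 3 were called higher (S100a8, Ngp and Ly6c1) and 0 lower, and their median log2 difference was 0.56. Of all 22003 genes compared, 20.4% were called higher and 2.41% lower, 4498 against 531, with a median of 0.04. Quantile scaling turned that split to 2431 against 2688. Between anti-VLA-4 and HFD-IgG, 9 were compared, 3 called higher (S100a8, S100a9 and Chi3l3) and 1 lower (Ngp), with a median of 0.23. Of all 22587 genes, 1.9% were called higher and 16.5% lower, 429 against 3721, with a median of -0.06, and under quantile scaling the split was 2462 against 2067. Between anti-VLA-4 and standard diet, 9 were compared, 4 called higher (S100a8, S100a9, Ly6c1 and Chi3l3) and 0 lower, with a median of 0.92. There 7.98% of 20346 genes were called higher and 3.39% lower, with a median of 0. The comparisons share arrays and are not independent.

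**Figure D2:**
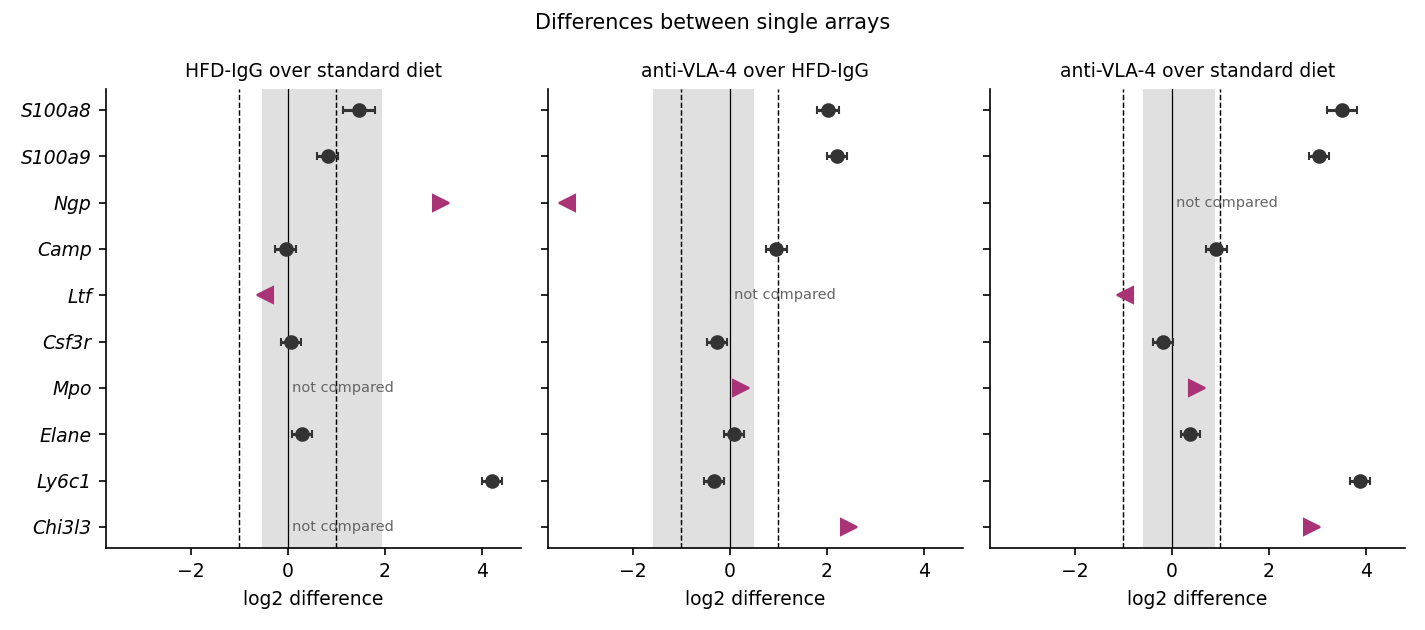
Log2 difference of each of the 10 genes in the 3 comparisons, from the probe used for the gene. Points carry the scanner's error, arrowheads are lower bounds, grey bands span the middle 80% of all genes compared, and dashed lines mark 2-fold. S100a8, S100a9, Chi3l3 and Camp lie right of the band in the middle panel, where it reaches from -1.55 to 0.48, and Ngp lies left of it.

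By rank, Chi3l3 was 18th, S100a9 29th and S100a8 38th from the highest among 22587 genes for anti-VLA-4 over HFD-IgG, with Chi3l3 placed at its bound. Camp stood 496th there. Ly6c1 ranked 134th among 22003 genes for HFD-IgG over standard diet and 13th among 20346 for anti-VLA-4 over standard diet. In HFD-IgG over standard diet S100a8 was only 3115th, and 14.2% of genes stood as high or higher.

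Calls that involve the HFD-IgG array went with the purine content of the probe over the whole array. In HFD-IgG over standard diet the share of genes called higher was 8.24% for probes of at most 40% purines, 12.1% above 40 to 50%, 23.1% above 50 to 60% and 46.9% above 60%. In anti-VLA-4 over HFD-IgG the share called lower was 3.78%, 7.08%, 19.4% and 46.7% in the same order, and the share called higher 4.61%, 1.98%, 1.34% and 0.316%. In anti-VLA-4 over standard diet, which leaves out the HFD-IgG array, the share called higher lay between 7.73% and 8.13%. The S100a8 probe (51.7% purines) and the S100a9 probe (58.3%) are in the class where 1.34% of genes were called higher in anti-VLA-4 over HFD-IgG. The Chi3l3 and Elane probes (35.0% each) are in the lowest class, and the brighter Ly6c1 probe (45.0%) is in the class where 12.1% were called higher in HFD-IgG over standard diet. In anti-VLA-4 over standard diet, without the HFD-IgG array, S100a8, S100a9, Ly6c1 and Chi3l3 were called higher.

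**Figure D3:**
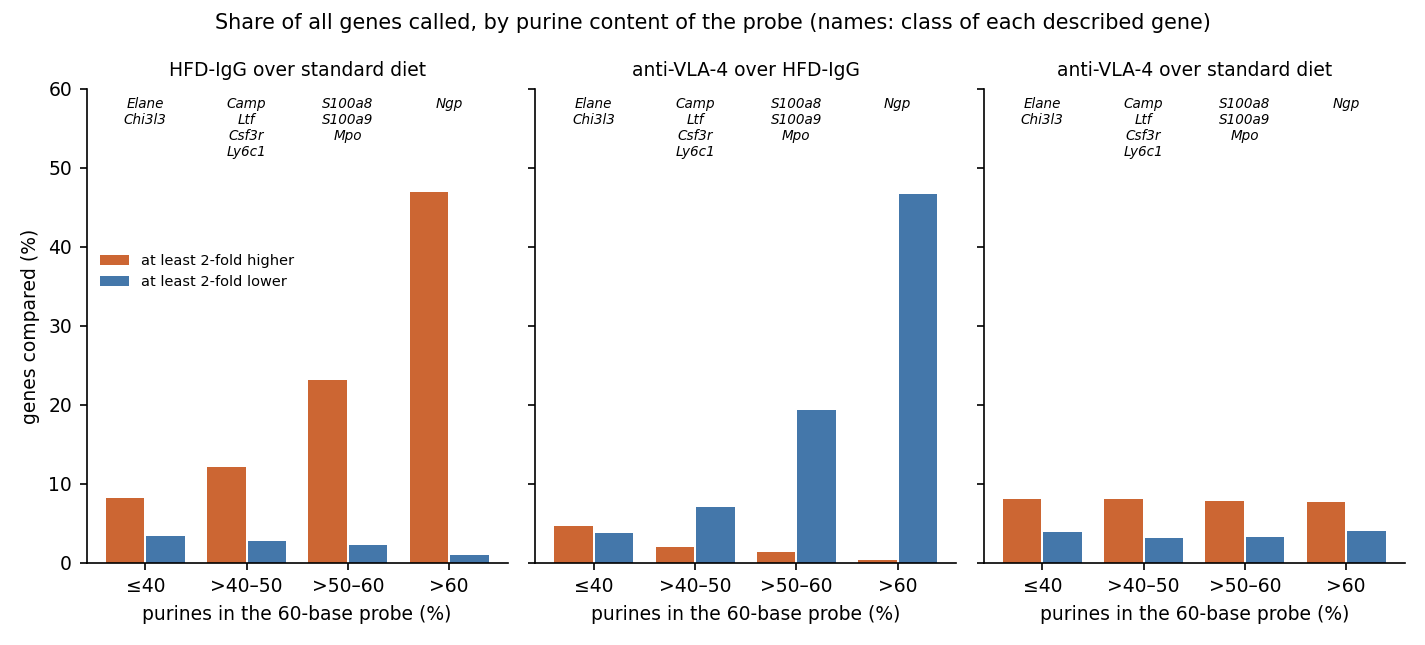
Percent of all genes compared that were at least 2-fold higher (orange) or lower (blue) in each comparison, by purine content of the 60-base probe. The names give the class of the probe used for each of the 10 genes. The orange bars of the first panel and the blue bars of the second climb with purine content, to 46.9% and 46.7%, and those of the third are level.

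Other neutrophil genes did not move as 1 block either. Of 31 more genes in lists of primary granules, later granules and mature neutrophils, 9 of 18 compared were called higher in HFD-IgG over standard diet and 0 lower (median 0.85, against 0.04 for all genes). Quantile scaling left 5 higher and 1 lower, and the median at 0.07. Between anti-VLA-4 and HFD-IgG, 3 of 23 were called higher (Clec4d, Clec4e and Slpi) and 2 lower (Cxcr2 and Pglyrp1), with a median of 0.23 against -0.06. With quantile scaling 9 were called higher and 1 lower, with a median of 0.72, and with cyclic loess 6 and 2, with a median of 0.215. With normexp correction 0 were called either way and the median was -0.15, so its sign turned there. Lcn2, the iron-scavenging lipocalin that hepatocytes also make, read 0.661, 9.97 and 8.95 in the order standard diet, HFD-IgG and anti-VLA-4. Cebpe, a transcription factor of granule genes, read 3.01, 6.18 and 5.93. The chemotaxis receptor Fpr1 rose 4.11-fold from standard diet to HFD-IgG and read 0.429 and 0.388 on the high-fat-diet arrays. Slpi, a protease inhibitor, read 0.132, 0.372 and 0.806 and was the one of the 4 brightest mature neutrophil genes called higher in anti-VLA-4 over HFD-IgG, at 2.17-fold. Trem1, an amplifying receptor, read 1.06, 0.867 and 1.02.

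Several dim genes of these lists, named here after their values were seen, stood on one or the other high-fat-diet array. Clec4d and Clec4e, C-type lectin receptors of myeloid cells, were 2.84-fold and at least 5.26-fold higher on the anti-VLA-4 array than on the HFD-IgG array. Retnlg was well above background on the anti-VLA-4 array alone, at 0.0536. The chemokine receptor Cxcr2 passed the background criterion with HFD-IgG alone (0.126), as did Pglyrp1 (0.0641) and Mmp8 (0.0396). The probes of these last 3 hold 66.7%, 56.7% and 65.0% purines, and that of Clec4e 46.7%. The part of purine content was not tested.

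Of the other inflammatory monocyte genes 12 were compared between HFD-IgG and standard diet, and 8 were called higher and 0 lower, with a median of 1.96. Quantile scaling left 6 higher and a median of 1.34. Between anti-VLA-4 and HFD-IgG, 0 of 14 were called higher and 2 lower (Ccr2 and Fcgr1), with a median of 0.04. Quantile scaling and cyclic loess each gave 1 higher and 1 lower. Lyz1, a lysozyme, read 0.385, 1.496 and 2.12 in the order standard diet, HFD-IgG and anti-VLA-4. Csf1r, the receptor that keeps macrophages alive, read 2.96, 12.0 and 9.33 on its brightest probe and 0.963, 1.01 and 1.01 on another. The brightest Itgam and Ms4a4c probes stayed within 2-fold, at 5.04, 6.11 and 5.8 and at 215, 155 and 174. Dimmer probes of both genes were highest on the anti-VLA-4 array. Those of Itgam read 0.0536, 0.064 and 0.133, and 0.0499, 0.0522 and 0.0753 in the same order. Those of Ms4a4c read 0.035, 0.0502 and 0.0703, and 0.0077, 0.0271 and 0.0417. The counts of monocyte genes called rest on the brightest probe of each gene. Ccr2, the receptor that brings monocytes out of the marrow, was named, as Fcgr1 was, after its values were seen. It did not pass the background criterion with standard diet and read 0.160 with HFD-IgG and 0.0560 with anti-VLA-4. Its probe holds 58.3% purines. The 6 phagocyte oxidase genes were all called higher in HFD-IgG over standard diet (4 of 6 under quantile scaling), and none of these 6 was called between anti-VLA-4 and HFD-IgG.

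Among signals that draw or feed these cells, the neutrophil chemokine Cxcl1 was one of the genes most like S100a8. It read 0.182 with standard diet, 0.644 with HFD-IgG and 3.48 with anti-VLA-4, 5.41-fold higher on the last than on HFD-IgG. Il1b did not pass the background criterion with standard diet and read 0.112 and 0.262 on the other 2, a 2.35-fold difference. The monocyte chemokine Ccl2 read 0.296 and 0.493 there, and Csf1 0.365 and 0.437, both within 2-fold. Of 9 such genes compared between anti-VLA-4 and HFD-IgG, 2 were called higher (Cxcl1 and Il1b) and 1 lower (Csf3, named after its values were seen), with a median of 0.31. Quantile scaling gave 6 higher and a median of 1.03, cyclic loess 3 and 0.60, and normexp correction 1 and -0.04.

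The genes whose levels over the 3 arrays were most like those of each member were searched among 12146 genes well above background on all 3, by the root mean square of centred log2 differences. For S100a8 these were Cyp21a1 (0.23), S100a9 (0.27) and Cxcl1 (0.31). For S100a9 they were Chac1 (0.12), Cyp21a1 (0.17) and Derl3 (0.17), and 3 genes in all lay within 0.2. For Ly6c1 they were the acute phase gene Saa2 (0.087), Serpina3g (0.097) and Clec7a (0.11), with 6 genes within 0.2. For Camp they were Msh4, Slc39a14 and Oprl1, with 333 genes within 0.2. For Csf3r they were Rpl41, Hspa8 and Htra3, and for Elane Idua, H2aw and Tnfsf12, with 5449 and 3852 genes within 0.2. With 3 points per gene, many genes share a pattern, and likeness here says nothing else.

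Markers of the other cells of the liver moved as well. Of 12 genes of hepatocytes, the labelled cell type, 0 were called higher and 1 lower in HFD-IgG over standard diet, with a median of -0.18. With normexp correction 6 were called lower. Hepatocyte genes were bright, Alb at 747, 762 and 617 and Serpina1a at 874, 916 and 746 in the order standard diet, HFD-IgG and anti-VLA-4. Cps1, the gene called lower and named after its values were seen, read 56.0, 25.4 and 41.3. In HFD-IgG over standard diet 11 of 11 Kupffer cell genes were called higher (10 under quantile scaling), with a median of 2.56, and their summed relative signal was 9.62, 61.3 and 43.9 in that order. Of 12 genes of sinusoidal endothelium, which also carries Ly6C, 10 were called higher, with a summed signal of 18.3, 77.0 and 43.4. These sums include Kdr by its brighter probe, at 9.07, 9.25 and 9.07, whereas its dimmer probe read 0.419, 2.65 and 1.37. Of 8 stellate cell genes 7 were called higher, with a summed signal of 1.71, 18.7 and 9.26. The Kupffer genes Clec4f and Cd5l were well above background on all arrays, Clec4f at 1.04, 6.73 and 5.01.

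Markers of other blood cells were read in the same way, and the called genes of these lists are named after their values were seen. Of 10 eosinophil, basophil and mast cell genes, 5 were compared in HFD-IgG over standard diet and 5 called higher (3 under quantile scaling), with a median of 3.42. Between the high-fat-diet arrays 4 of 5 were called lower with anti-VLA-4 (Ear1, Siglec5, Ccr3 and Mcpt8), with a median of -1.23, and 0 with normexp correction. The Siglec5 call rests on a probe that read 0.00673, 0.353 and 0.0253 in the order standard diet, HFD-IgG and anti-VLA-4. Another Siglec5 probe was not well above background on any array. Mcpt8 passed the background criterion with HFD-IgG alone. The part of purine content in these calls was not tested. Ear2, an eosinophil-associated ribonuclease, read 0.135, 1.51 and 0.844 in the order standard diet, HFD-IgG and anti-VLA-4, whereas the eosinophil granule genes Prg2 and Epx were not well above background on any array. Of 5 T and NK cell genes compared in HFD-IgG over standard diet, 2 were called higher (Cd3g and Ncr1) and 1 lower (Cd4), with a median of -0.18. The Cd4 call rests on a probe that read 24.9, 10.8 and 15.6, whereas the other Cd4 probe read 0.0424, 0.0542 and 0.0548. Cd3e, a chain of the T cell receptor complex, read 1.77, 1.56 and 1.46. Cd3g and Cd3d, of the same complex, did not pass the background criterion with standard diet. Cd3d too was named after its values were seen. Of 5 erythroid genes 0 were called higher and 2 lower (the globin genes Hba-a1 and Hbb-b1), with a median of -0.78 that was 0.02 with normexp correction.

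In anti-VLA-4 over HFD-IgG, where S100a8, S100a9 and Chi3l3 were called higher, the medians of the Kupffer, endothelial and stellate cell lists were below 0. Of the Kupffer cell genes 0 were called and 11 of 11 were lower (median -0.44), of the endothelial genes 6 of 12 were called lower (median -0.98), and of the stellate cell genes 3 of 8 (median -0.94), Des, Pdgfrb and Col1a1, named after their values were seen. With normexp correction the endothelial and stellate counts were 1 each. The part of purine content in the calls of these lists that involve the HFD-IgG array was not tested. Among neutrophil lists the summed signal did not move one way. That of 20 mature neutrophil genes was 2.09, 2.96 and 3.86 in the order standard diet, HFD-IgG and anti-VLA-4, and Slpi alone went from 0.372 to 0.806 in the last step while Cxcr2, Fpr1 and Ltb4r1, the last named after its values were seen, read lower there. That of 7 later granule genes was 3.72, 16.3 and 14.9, and that of 4 primary granule genes 0.177, 0.218 and 0.224. The part of other cells in the 10 genes' values was not tested.

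**Figure D4:**
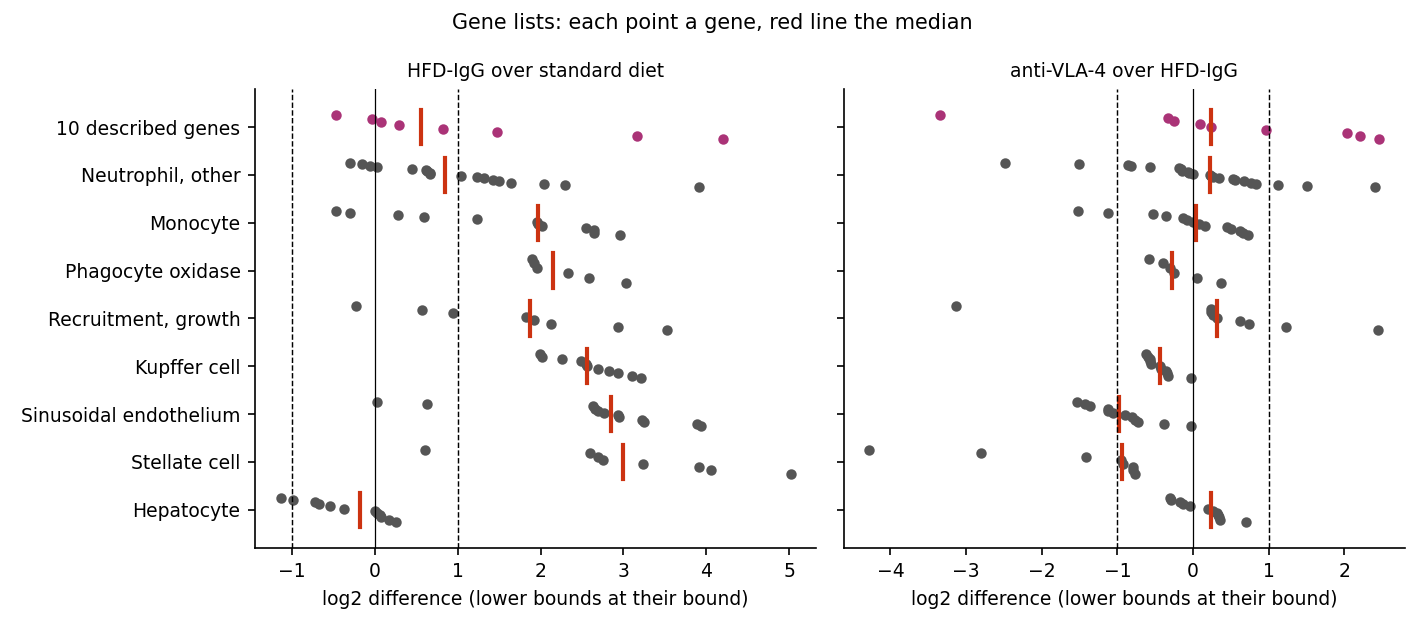
Log2 differences of the genes compared, by list, in HFD-IgG over standard diet (left) and anti-VLA-4 over HFD-IgG (right). Each point is a gene, lower bounds stand at their bound, red bars are medians and dashed lines mark 2-fold. Kupffer, endothelial and stellate genes lie right of 0 on the left and at or left of 0 on the right, while the 10 genes spread to both sides on the right.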

How the data were processed

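The deposited spot intensities and their errors came from Agilent Feature Extraction, version 11.0.1.1 according to the submitters' processing notes, with background subtracted, per the file headers. The flags used, which are other values, were set by the same software, per the file headers. A table of values deposited with the series gives, for 23206 spots and 6 of the 10 genes, the ratio of a spot's intensity to its array's 75th percentile, to within 2e-08, and served as an alternative. Its 3 columns were matched to the samples.

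Members and gene lists were chosen with earlier results of these data known. Spots marked non-uniform or population outlier were dropped, and the mean was taken over spots of one probe. RefSeq accessions gave the symbol for 26055 of 39429 probes. A gene took its brightest probe, and entered a comparison if 1 or both arrays of the pair had it well above background. The 75th percentile was 574 with standard diet, 500.3 with HFD-IgG and 514 with anti-VLA-4. The text names the 10 genes, up to 4 of the brightest of each of 20 lists and the 3 most like genes of each member well above background on all 3 arrays. It also names neighbours, probes that share the Csf3r run and genes said to be named after their values were seen. The steps were tested on simulated data. Python 3.11.15, pandas 2.3.3, R 4.3.3 and limma 3.58.1 were used.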

Additional observations from a re-analysis of the deposited data

How the results depend on the processing

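The 11 alternatives were quantile scaling, cyclic loess, another percentile base, normexp correction, 2 filters on dim probes, the mean over probes, the deposited table, 1.5-fold and 4-fold thresholds, and flagged spots kept. Of 218 values of single genes 182 moved by less than the scanner error and 36 by more. This count does not measure how stable the values are. For a member well above background on both arrays, the filters, the deposited table and flagged spots kept return the main value. So does the mean over probes where a gene has 1 probe. For lower bounds the error includes that of a dim spot. Mpo in anti-VLA-4 over HFD-IgG, at 0.232 and with quantile scaling at 1.28, thus counted as moved by less. The median over the genes compared moved in HFD-IgG over standard diet to 0.98 with normexp. In anti-VLA-4 over HFD-IgG it moved to 1.28 with quantile scaling, 0.75 with cyclic loess, 0 with normexp and 0.52 with the stricter filter, no filter or the deposited table. In anti-VLA-4 over standard diet it moved to 1.66 with normexp, 1.97 with the stricter filter or the deposited table and 1.52 with no filter. Genes called higher in anti-VLA-4 over HFD-IgG were 5 with quantile scaling and 1 with normexp. Genes called lower were 1 in HFD-IgG over standard diet with quantile scaling or no filter, and 0 in anti-VLA-4 over HFD-IgG with normexp, the stricter filter or the deposited table. In anti-VLA-4 over standard diet they were 1 with quantile scaling, cyclic loess or 1.5-fold, and 2 with no filter. The causes were not tested, except that stricter filters and the deposited table hold fewer genes. Normexp moved the median of all genes to 0.47, -0.14 and 0.28 in the 3 comparisons as named in this order. No replicate could be left out, and no paired analysis was possible because each group has 1 array. Low signal over background limits what can be said of Mpo, Ltf and the dim sides of Ngp and Chi3l3.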
